A study of Homo sapiens with 12 samples.

Results

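The genes described here encode the proteasome and the proteins that assemble and regulate it. They are all genes whose symbol in the array's annotation begins with PSMA, PSMB, PSMC, PSMD, PSME, PSMF or PSMG, without the interferon-inducible catalytic subunits PSMB8 and PSMB9. Of 20044 gene symbols on the array 46 matched, and 43 of them were among the 11564 genes that passed a filter on dim probes. Of the 46, 4 carry such a symbol but name no proteasome subunit, so that 39 of the genes tested encode subunits, activators or assembly factors. RNA was taken from 12 samples labelled as SKBR-3, a human breast cancer cell line, and measured on Illumina expression arrays in 6 groups of 2. The groups were Y15 at 1 µM, PF04554878 (defactinib) at 1 µM, lapatinib at 5 µM, Y15 at 1 µM with lapatinib at 5 µM, PF04554878 at 1 µM with lapatinib at 5 µM, and untreated cells, and treatment lasted 24 hours. Y15 and PF04554878 inhibit focal adhesion kinase (FAK), and lapatinib inhibits the receptor kinases EGFR and HER2. No label speaks of a vehicle in the untreated cells or of separate cultures behind the 2 samples of a group. The p-values therefore reflect the spread between 2 samples, and that spread may be only technical.

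The proteasome is the large protease that degrades proteins tagged with ubiquitin. Its barrel-shaped core particle is built of outer alpha rings, which gate the entrance, and inner beta rings, which carry the proteolytic sites, while a regulatory particle of ATPases and non-ATPase subunits binds, unfolds and feeds in the substrate. Alternative activators can cap the core in place of the regulatory particle, and dedicated chaperones build both particles and then leave. Cells that lose proteasome activity raise the subunit genes together through the transcription factor NFE2L1, which binds antioxidant response elements in their promoters. Breast cancer cells, like all dividing cells, depend on the proteasome, and PSMB5 is the subunit that bortezomib blocks.

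The arrays fell into 3 sets that do not follow the agents one by one. The 2 arrays of each group had a Pearson r across genes of 0.987 to 0.995. Untreated with Y15, lapatinib with Y15 plus lapatinib, and PF04554878 with PF04554878 plus lapatinib each correlated nearly as highly, with mean r from 0.985 to 0.986, against 0.875 to 0.937 between these sets. As genes are not independent of each other, r serves here only as a description. Untreated replicate 2 correlated best with Y15 replicate 2. ERBB2 and GRB7, expected to be high in SKBR-3, were above background on all 12 arrays. Group means of ERBB2 ran from 8.34 with Y15 plus lapatinib to 9.35 untreated, and those of GRB7 from 7.21 with PF04554878 to 8.07 with Y15. SKBR-3 is known to lack ESR1 and PGR, the oestrogen and progesterone receptors, yet both were above background on all 12 arrays. ESR1 had group means from 9.85 to 10.44, and PGR means of 7.90 with Y15, 8.08 with PF04554878, 10.55 with lapatinib, 10.06 with Y15 plus lapatinib and 8.19 with PF04554878 plus lapatinib, against 7.83 in untreated arrays. Their part in any result below was not tested. For that reason samples are called by their labels throughout. All 5 luminal epithelial markers passed the filter, as did 2 of 6 fibroblast, 1 of 5 endothelial, 1 of 5 leukocyte, 2 of 4 basal epithelial and 1 of 4 adipocyte markers on the array. The mean log2 level of the luminal list was 12.26 with PF04554878 and 12.24 with PF04554878 plus lapatinib, while it ran from 11.41 to 11.62 with the other treatments and was 11.48 in untreated arrays. The luminal markers moved both ways with lapatinib. CDH1 (11.58 against 10.41 untreated) and KRT19 (13.47 against 13.19) had higher means. KRT18 (7.62 against 8.65), EPCAM (11.91 against 12.42) and KRT8 (12.45 against 12.71) had lower ones. With PF04554878 all 5 means were above untreated, CDH1 (12.34) by the most. The mean level of the basal list was 7.31 with Y15 and from 7.62 to 7.73 in the other 4 treated groups, against 7.13 in untreated arrays. In that list ACTA2 had means of 9.36 with lapatinib and 8.87 with PF04554878, against 7.12 untreated, while KRT5 and KRT14 lay below background on all 12 arrays. CDH3 had means of 8.94 with Y15, 8.79 with PF04554878, 8.54 with lapatinib, 8.57 with Y15 plus lapatinib and 9.04 with PF04554878 plus lapatinib, against 8.56 untreated. The fibroblast and endothelial lists stayed between 6.55 and 6.69, below the background cutoff of 6.80, in all 6 groups, while the leukocyte list had means from 6.76 to 6.91 and the adipocyte list from 6.63 to 7.08. The part of the epithelial markers in the proteasome results was not tested. In RNA from bulk cells, fewer cells of a kind and less RNA per cell cannot be told apart.

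The promoters of 4 members that the results below turn on are shown first, because the members' promoters were searched for 2 motifs tied to proteasome genes. PSME1 and PSME2 encode the partner subunits of one activator ring and had the same direction in the arrays labelled PF04554878, and PSMD6 and PSMD12, both lid subunits, were low in the arrays labelled lapatinib. Each sequence gives the 250 bases before the gene's start from RefSeq (GRCh38.p14), on the gene's own strand, and capitals mark a match.
PSME1 (chr14:24135944-24136193, plus strand): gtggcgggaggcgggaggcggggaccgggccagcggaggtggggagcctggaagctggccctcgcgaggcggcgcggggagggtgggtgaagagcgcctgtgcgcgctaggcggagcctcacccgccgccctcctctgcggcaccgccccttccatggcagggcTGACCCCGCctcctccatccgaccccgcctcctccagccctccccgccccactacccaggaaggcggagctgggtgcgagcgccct
PSME2 (chr14:24146611-24146860, minus strand): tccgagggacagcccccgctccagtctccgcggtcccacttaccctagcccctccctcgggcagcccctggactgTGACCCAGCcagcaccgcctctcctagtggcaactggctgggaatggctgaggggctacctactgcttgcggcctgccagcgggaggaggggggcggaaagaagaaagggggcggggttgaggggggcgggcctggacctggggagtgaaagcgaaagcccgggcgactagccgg
PSMD6 (chr3:64023495-64023744, minus strand): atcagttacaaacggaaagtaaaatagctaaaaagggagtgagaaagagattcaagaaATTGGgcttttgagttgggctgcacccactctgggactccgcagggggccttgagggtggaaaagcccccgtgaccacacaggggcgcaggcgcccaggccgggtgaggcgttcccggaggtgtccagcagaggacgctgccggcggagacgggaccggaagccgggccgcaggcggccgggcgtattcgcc
PSMD12 (chr17:67366578-67366827, minus strand): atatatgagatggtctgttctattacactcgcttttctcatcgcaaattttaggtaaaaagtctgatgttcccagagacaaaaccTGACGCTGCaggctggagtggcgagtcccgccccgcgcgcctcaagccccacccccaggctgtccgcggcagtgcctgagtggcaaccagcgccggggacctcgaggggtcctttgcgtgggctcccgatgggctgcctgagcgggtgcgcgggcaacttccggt

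The letters searched on both strands were TGACNNNGC, the core of the antioxidant response element, and CCAAT, the box bound by NF-Y, and in the 4 sequences shown no match of one overlapped a match of the other. The windows searched ran from 250 bases before to 50 bases after each start. PSME1, PSME2 and PSMD12 each held 1 TGACNNNGC match on the strand shown, beginning 86, 175 and 165 bases before the start, and no CCAAT. PSMD6 held 1 CCAAT match on the opposite strand, printed as ATTGG, which begins 192 bases before the start, and no TGACNNNGC. Windows were found for 41 of the 46 members, 50 windows in all. TGACNNNGC was in 13 of these 50 windows (26.0%), against 13.3% of all 35116 promoter windows, and CCAAT in 21 of 50 (42.0%), against 34.6%. The 13 genes with TGACNNNGC include PSME4, PSMC4, PSMD1, PSMB3 and PSMG2, which moved in different directions below. A match describes the letters of a window and does not show that a factor binds there.

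More proteasome genes rose than fell in the arrays labelled PF04554878. In the arrays labelled lapatinib the members were divided, with shares near those of all genes tested. With PF04554878, 21 of the 43 members rose and 6 fell (62.8% in all). Of all genes tested 45.2% passed in either direction (23.7% higher, 21.6% lower). With lapatinib 12 rose and 14 fell (60.5% in all), where 55.9% of all genes passed (27.9% higher, 28% lower). With Y15 only PSMB5 passed, and it was lower, beside 5.44% of all genes (2.94% higher, 2.5% lower). Y15 plus lapatinib gave 15 higher and 12 lower members (62.8% in all) beside a background of 54.6% (27.4% higher, 27.1% lower). PF04554878 plus lapatinib gave 16 higher and 9 lower (58.1% in all) beside 46.3% (23.7% higher, 22.6% lower). Passing means an adjusted p from limma under 0.05, with Benjamini-Hochberg adjustment over all 11564 genes, and the words rose and fell are kept for such genes. These 5 comparisons share the untreated arrays.

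**Figure D1:**
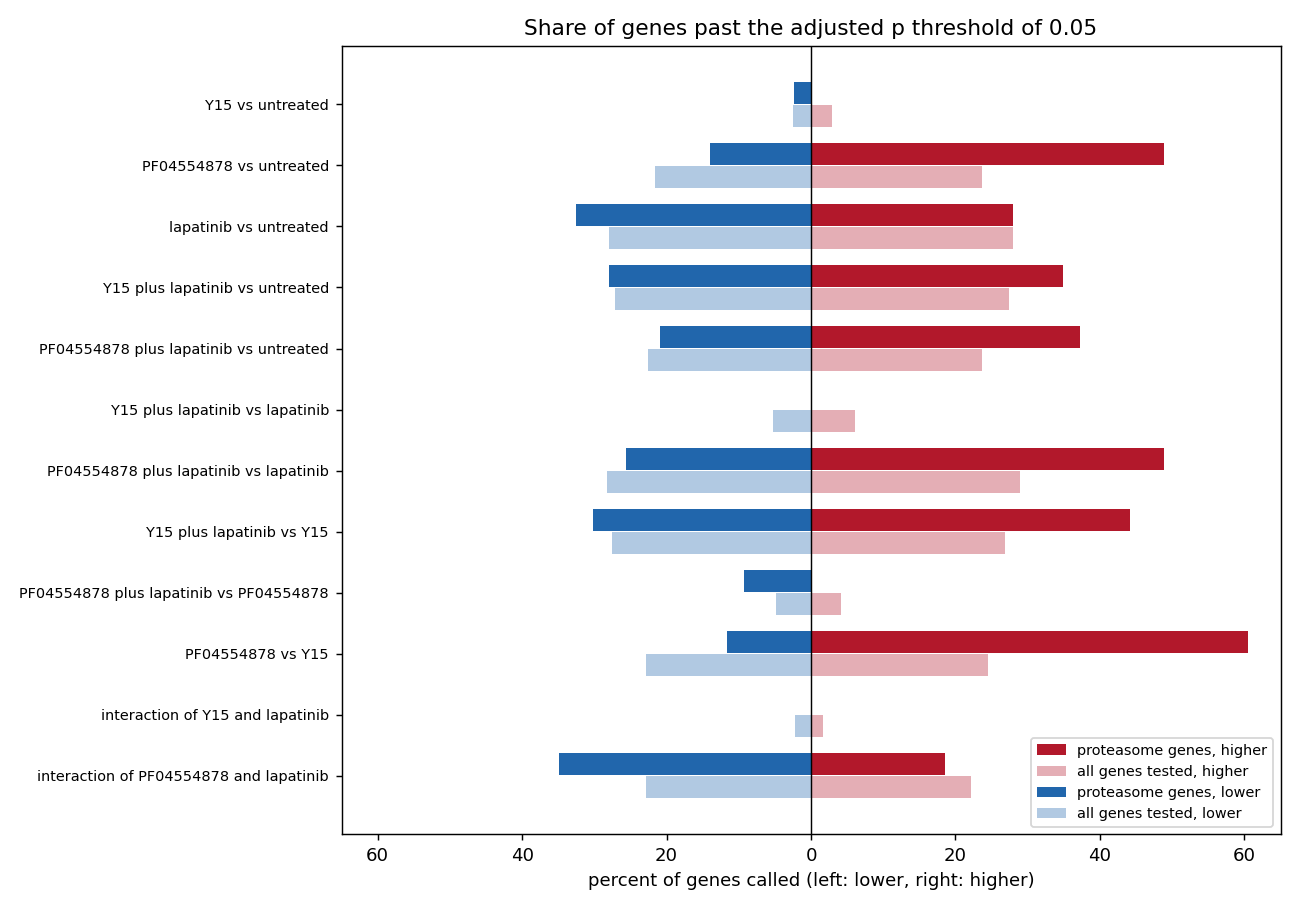
Percent of the 43 proteasome genes (dark bars) and of all 11564 genes tested (pale bars) past the adjusted p threshold of 0.05 in each of the 12 comparisons, with higher genes to the right of 0 and lower genes to the left. The dark bar for higher genes is longest for PF04554878 against Y15, with 26 of 43, and no dark bar is drawn for Y15 plus lapatinib against lapatinib or for the interaction of Y15 and lapatinib.

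The median log2 change of the 43 members was 0.26 with PF04554878, beside 0.0008 over all genes tested, 0.14 with lapatinib beside -0.0052, and -0.10 with Y15 beside 0.01. It was 0.09 with Y15 plus lapatinib and 0.13 with PF04554878 plus lapatinib, beside -0.0067 and -0.005 over all genes. The members that passed the filter are not all members: PSMA8, an alpha subunit of the testis, PSMB11, a catalytic subunit of the thymus, and PSMF1, a proteasome inhibitor protein, lay below background on all 12 arrays. Another 40 were above background on all 12 arrays, PSMD9 on 10, PSMG3-AS1 on 8 and PSMD6-AS2 on 6. Some other known proteasome subunits were not analysed here. Without untreated replicate 1 or 2, or either PF04554878 array, 21 to 25 members passed with PF04554878 and the calls that ended are named with their genes below.

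**Figure D2:**
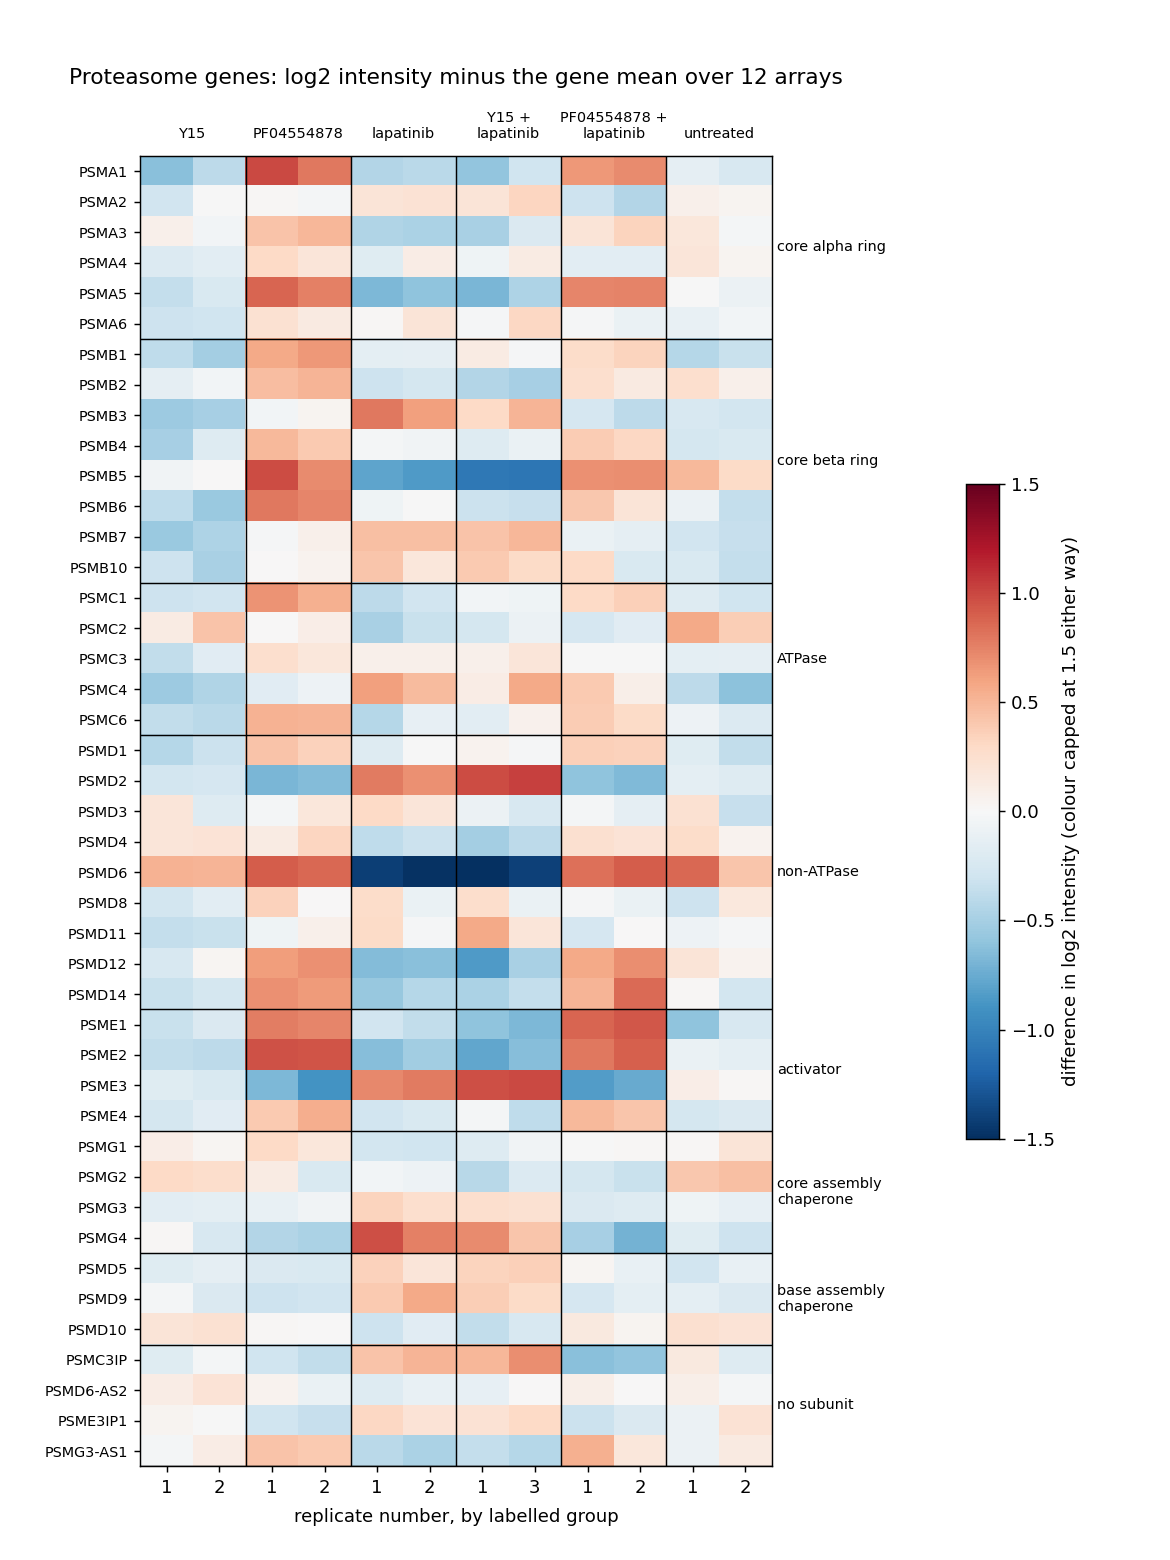
Log2 intensity of each of the 43 proteasome genes on each of the 12 arrays (columns, by labelled group), minus that gene's mean over the 12 arrays, in units of log2 and capped at 1.5 either way. Genes are grouped by role (rows). The 4 arrays with PF04554878 share one pattern, the 4 with lapatinib without PF04554878 another, and PSMD6 has the darkest cells.

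The alpha ring forms the gated entrance of the core particle, and 6 of its 7 matched subunits were measured. With PF04554878 3 rose and 0 fell, with lapatinib 0 rose and 2 fell, and with Y15 all 6 changes were below 0 but none passed. The shares of all genes passing were 45.2%, 55.9% and 5.44%. PSMA1 stood at 10.36 and 10.60 in the 2 arrays labelled Y15, 11.98 and 11.78 with PF04554878, 10.54 and 10.58 with lapatinib, 10.39 and 10.68 with Y15 plus lapatinib, 11.64 and 11.69 with PF04554878 plus lapatinib, and 10.85 and 10.74 in the untreated arrays. All 4 PF04554878 arrays lay above the 8 others. The change was 1.08 ± 0.11, adjusted p = 1.69e-06 with PF04554878 and 0.87 ± 0.11, adjusted p = 1.48e-05 with PF04554878 plus lapatinib, while the changes with lapatinib (-0.24 ± 0.11) and with Y15 (-0.31 ± 0.11) did not pass. PSMA5 measured 11.53 and 11.65 with Y15, 12.76 and 12.63 with PF04554878, 11.20 and 11.27 with lapatinib, 11.20 and 11.42 and 12.61 and 12.62 with lapatinib plus Y15 and plus PF04554878, against 11.87 and 11.79 untreated. Here the groups parted both ways: the PF04554878 arrays were the 4 highest and the arrays with lapatinib alone or with Y15 the 4 lowest, with no overlap with the untreated pair. PSMA5 rose with PF04554878 (0.86 ± 0.10, adjusted p = 3.36e-06) and with PF04554878 plus lapatinib (0.79 ± 0.10, adjusted p = 7.85e-06), and fell with lapatinib (-0.59 ± 0.10, adjusted p = 8.22e-05) and with Y15 plus lapatinib (-0.52 ± 0.10, adjusted p = 0.000283).

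The log2 intensities of PSMA3 were 11.23 and 11.11 with Y15, 11.58 and 11.65 with PF04554878, 10.70 and 10.68 with lapatinib, 10.66 and 10.94 with Y15 plus lapatinib and 11.35 and 11.49 with PF04554878 plus lapatinib, against 11.32 and 11.12 in untreated arrays. The lapatinib pair and the PF04554878 pair stood on opposite sides of the untreated pair. PSMA3 fell with lapatinib (-0.53 ± 0.11, adjusted p = 0.000591) and Y15 plus lapatinib (-0.42 ± 0.11, adjusted p = 0.00376) and rose with PF04554878 (0.39 ± 0.11, adjusted p = 0.00727), although the last call was lost without untreated replicate 2 or PF04554878 replicate 2 and that with Y15 plus lapatinib without its replicate 1. PSMA2 measured 7.79 and 8.07 with Y15, 8.10 and 8.05 with PF04554878, 8.27 and 8.29 with lapatinib, 8.28 and 8.41 and 7.76 and 7.64 with lapatinib plus Y15 and plus PF04554878, against 8.16 and 8.12 untreated. This subunit was lowest on both arrays of PF04554878 plus lapatinib, where it fell (-0.44 ± 0.10, adjusted p = 0.00216), and no other change against untreated passed. PSMA4 fell with PF04554878 plus lapatinib alone (-0.27 ± 0.11, adjusted p = 0.0489), a call that, of 12 alternatives, passed only with arrays centred or without untreated replicate 2. PSMA4 measured 11.36 and 11.41 with Y15, 11.86 and 11.75 with PF04554878, 11.39 and 11.68 with lapatinib, 11.51 and 11.69 and 11.41 and 11.41 with lapatinib plus Y15 and plus PF04554878, against 11.76 and 11.61 untreated. The Y15 arrays and those of PF04554878 plus lapatinib lay below both untreated arrays, and the other 3 groups overlapped with them. PSMA6 passed in none of the 5 comparisons against untreated, with changes from -0.23 to 0.25.

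The beta ring carries the proteolytic sites, and 8 of its 9 matched subunits were measured. With PF04554878 7 rose and 0 fell, with lapatinib 4 rose and 2 fell, and with PF04554878 plus lapatinib 4 rose and 0 fell. Beside these stood 45.2%, 55.9% and 46.3% of all genes passing. PSMB5, the subunit with chymotrypsin-like activity, spread widely among the groups. PSMB5 stood at 10.88 and 10.94 in the 2 arrays labelled Y15, 11.92 and 11.64 with PF04554878, 10.15 and 10.08 with lapatinib, 9.87 and 9.84 with Y15 plus lapatinib, 11.62 and 11.63 with PF04554878 plus lapatinib, and 11.43 and 11.22 in the untreated arrays. The 4 arrays with lapatinib but not PF04554878 were the lowest and the 4 with PF04554878 the highest, and both Y15 arrays lay below both untreated arrays. PSMB5 fell with lapatinib (-1.21 ± 0.10, adjusted p = 9.08e-08) and with Y15 plus lapatinib (-1.47 ± 0.10, adjusted p = 1.08e-08), and rose with PF04554878 (0.46 ± 0.10, adjusted p = 0.0019). Its fall with Y15 (-0.41 ± 0.10, adjusted p = 0.0345) did not pass without untreated replicate 1 (-0.31, adjusted p = 0.138), Y15 replicate 1 (-0.38, adjusted p = 0.189) or Y15 replicate 2 (-0.44, adjusted p = 0.139). With PF04554878 plus lapatinib it rose by 0.30 ± 0.10, adjusted p = 0.0249, a call lost without untreated replicate 2 (0.20, adjusted p = 0.18) or without either array of the combination.

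PSMB6 provides the caspase-like activity. The log2 intensities of PSMB6 were 11.17 and 10.98 with Y15, 12.33 and 12.28 with PF04554878, 11.48 and 11.54 with lapatinib, 11.22 and 11.20 with Y15 plus lapatinib and 11.95 and 11.74 with PF04554878 plus lapatinib, against 11.45 and 11.19 in untreated arrays. Only the PF04554878 groups lay above both untreated arrays by more than the gap between those arrays. The gene rose with PF04554878 (0.98 ± 0.11, adjusted p = 2.51e-06) and with PF04554878 plus lapatinib (0.53 ± 0.11, adjusted p = 0.000822), and did not pass with lapatinib (0.19 ± 0.11). PSMB7, which gives trypsin-like activity, took another course. PSMB7 measured 10.79 and 10.89 with Y15, 11.33 and 11.43 with PF04554878, 11.80 and 11.81 with lapatinib, 11.78 and 11.85 and 11.25 and 11.21 with lapatinib plus Y15 and plus PF04554878, against 11.06 and 11.00 untreated. The 4 arrays with lapatinib but not PF04554878 were the highest and the Y15 arrays the lowest. PSMB7 rose with lapatinib (0.77 ± 0.09, adjusted p = 1.61e-06), Y15 plus lapatinib (0.78 ± 0.09, adjusted p = 1.47e-06) and PF04554878 (0.35 ± 0.09, adjusted p = 0.00367). PSMB10 replaces PSMB7 in the immunoproteasome, a form of the core induced by interferon. PSMB10 measured 9.71 and 9.53 with Y15, 10.03 and 10.07 with PF04554878, 10.43 and 10.19 with lapatinib, 10.41 and 10.30 and 10.31 and 9.79 with lapatinib plus Y15 and plus PF04554878, against 9.79 and 9.67 untreated. It rose with lapatinib (0.59 ± 0.14, adjusted p = 0.00207) and Y15 plus lapatinib (0.63 ± 0.14, adjusted p = 0.00127), and with PF04554878 the change of 0.32 ± 0.14, adjusted p = 0.0717, did not pass, whereas a fit of these 2 groups alone gave adjusted p = 0.0456. Among the 4 catalytic subunits, the lapatinib arrays thus had lower PSMB5 and higher PSMB7 and PSMB10, and the PF04554878 arrays had higher PSMB5, PSMB6 and PSMB7.

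The other beta subunits have no proteolytic site of their own. PSMB1 measured 11.97 and 11.84 with Y15, 12.93 and 13.01 with PF04554878, 12.21 and 12.22 with lapatinib, 12.48 and 12.34 and 12.63 and 12.69 with lapatinib plus Y15 and plus PF04554878, against 11.93 and 12.02 untreated. All groups but Y15 stood above the untreated pair, the PF04554878 arrays highest. PSMB1 rose with PF04554878 (0.99 ± 0.09, adjusted p = 3.95e-07), PF04554878 plus lapatinib (0.68 ± 0.09, adjusted p = 1.73e-05), Y15 plus lapatinib (0.43 ± 0.09, adjusted p = 0.000839) and lapatinib (0.24 ± 0.09, adjusted p = 0.0352), and the last call did not hold without untreated replicate 1 or either lapatinib array. PSMB3 measured 10.38 and 10.43 with Y15, 10.89 and 10.97 with PF04554878, 11.72 and 11.55 with lapatinib, 11.23 and 11.44 and 10.68 and 10.53 with lapatinib plus Y15 and plus PF04554878, against 10.69 and 10.65 untreated. The lapatinib pair was the highest, and the pair with PF04554878 plus lapatinib reached no higher than the untreated pair. PSMB3 rose with lapatinib (0.97 ± 0.10, adjusted p = 6.68e-07) and Y15 plus lapatinib (0.66 ± 0.10, adjusted p = 3.75e-05), and its small rise with PF04554878 (0.26 ± 0.10, adjusted p = 0.0415) ended when any 1 of the 4 arrays was left out. PSMB2 measured 10.14 and 10.23 with Y15, 10.73 and 10.78 with PF04554878, 9.97 and 10.01 with lapatinib, 9.83 and 9.77 and 10.53 and 10.41 with lapatinib plus Y15 and plus PF04554878, against 10.53 and 10.36 untreated. PSMB2 fell with Y15 plus lapatinib (-0.64 ± 0.09, adjusted p = 2.51e-05) and lapatinib (-0.45 ± 0.09, adjusted p = 0.000594) and rose with PF04554878 (0.32 ± 0.09, adjusted p = 0.0106), a call lost without untreated replicate 2 or PF04554878 replicate 2. PSMB4 rose by 0.69 ± 0.10, adjusted p = 4.83e-05, with PF04554878 and by 0.59 ± 0.10, adjusted p = 0.000178, with PF04554878 plus lapatinib.

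**Figure D3:**
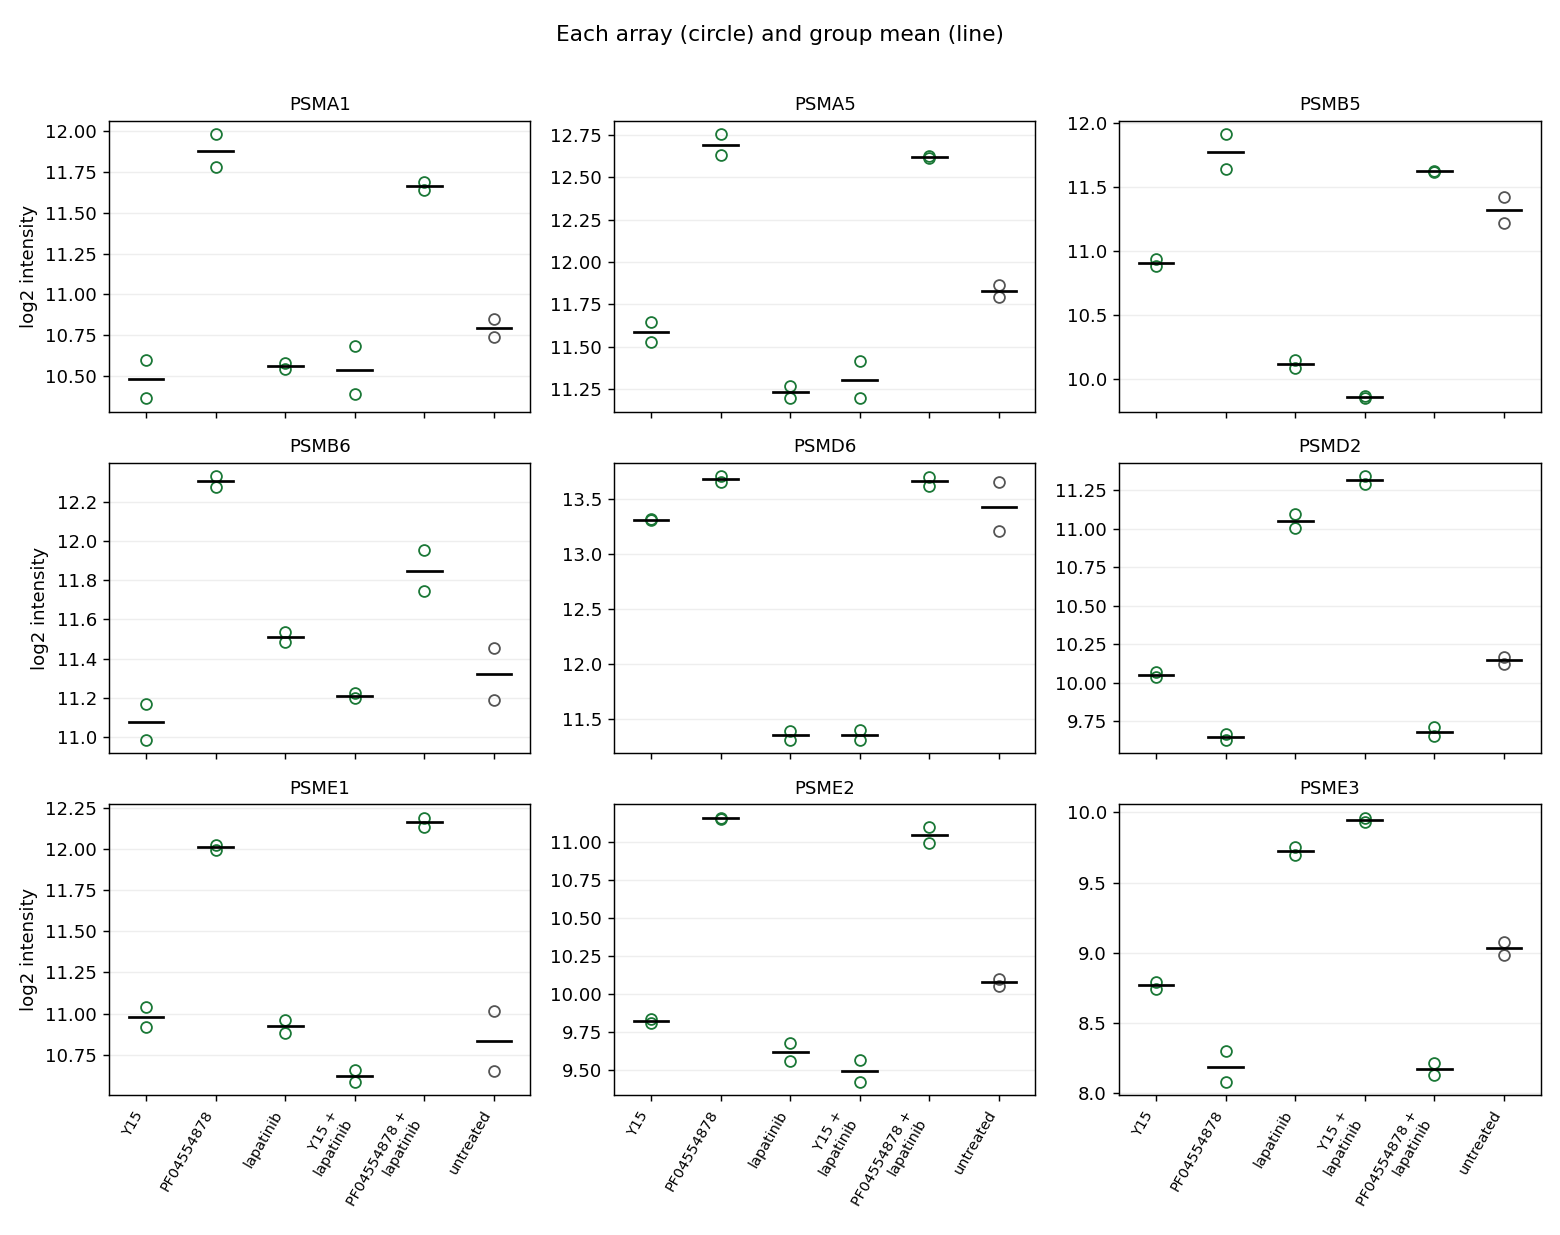
Log2 intensity of 9 proteasome genes on each array (circles) with the mean of the 2 arrays of a group (line), by labelled group, the untreated arrays at the right of each panel. Each vertical axis has its own range and does not start at 0. PSME1, PSME2 and PSMA1 are highest on the 4 arrays with PF04554878, PSMD6 is about 2 log2 units lower on the 4 arrays with lapatinib but not PF04554878, and PSMD2 and PSME3 are highest on those 4 arrays.

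The ATPases form the ring of the regulatory particle that unfolds substrates, and all 5 matched ones were measured. With PF04554878 4 rose and 1 fell, with lapatinib 1 rose and 1 fell, and with Y15 none passed, beside 45.2%, 55.9% and 5.44% of all genes. PSMC2 was the one that fell with every agent or combination but Y15. PSMC2 stood at 11.09 and 11.39 in the 2 arrays labelled Y15, 10.97 and 11.07 with PF04554878, 10.48 and 10.63 with lapatinib, 10.70 and 10.87 with Y15 plus lapatinib, 10.71 and 10.79 with PF04554878 plus lapatinib, and 11.53 and 11.33 in the untreated arrays. The lapatinib arrays were lowest, and only the arrays labelled Y15 overlapped with the untreated pair. The change was -0.87 ± 0.11, adjusted p = 9.2e-06 with lapatinib, -0.68 ± 0.11, adjusted p = 0.000163 with PF04554878 plus lapatinib, -0.64 ± 0.11, adjusted p = 0.0002 with Y15 plus lapatinib, and -0.41 ± 0.11, adjusted p = 0.00865 with PF04554878. The call with PF04554878 was lost without untreated replicate 1 (-0.31, adjusted p = 0.068) or PF04554878 replicate 1 (-0.36, adjusted p = 0.0641).

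The log2 intensities of PSMC4 were 8.98 and 9.07 with Y15, 9.35 and 9.45 with PF04554878, 10.14 and 9.99 with lapatinib, 9.64 and 10.09 with Y15 plus lapatinib and 9.92 and 9.61 with PF04554878 plus lapatinib, against 9.14 and 8.91 in untreated arrays. Every group but Y15 lay above both untreated arrays. PSMC4 rose with lapatinib (1.04 ± 0.14, adjusted p = 1.13e-05), Y15 plus lapatinib (0.84 ± 0.14, adjusted p = 0.000101), PF04554878 plus lapatinib (0.74 ± 0.14, adjusted p = 0.000431) and PF04554878 (0.37 ± 0.14, adjusted p = 0.0398), and the last call did not hold without untreated replicate 2 or either PF04554878 array. PSMC1 measured 11.70 and 11.72 with Y15, 12.68 and 12.54 with PF04554878, 11.61 and 11.72 with lapatinib, 11.96 and 11.94 and 12.31 and 12.37 with lapatinib plus Y15 and plus PF04554878, against 11.82 and 11.71 untreated. PSMC1 was higher on the 4 arrays with PF04554878 than on all 8 others and rose with PF04554878 (0.85 ± 0.09, adjusted p = 1.79e-06) and its combination (0.57 ± 0.09, adjusted p = 7.88e-05). PSMC6 rose in the same groups, by 0.66 ± 0.11 with PF04554878 and 0.47 ± 0.11 with the combination. PSMC3 rose with PF04554878 (0.35 ± 0.09) and Y15 plus lapatinib (0.27 ± 0.09), calls lost without PF04554878 replicate 1 and without untreated replicate 1 or Y15 plus lapatinib replicate 3.

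The non-ATPase subunits make up the scaffold, the ubiquitin receptors and the lid of the regulatory particle, and all 9 matched ones were measured. With lapatinib 1 rose and 4 fell, beside 55.9% of all genes passing, and with PF04554878 3 rose and 1 fell, beside 45.2%. The lid subunit PSMD6 had the largest change of any member against untreated arrays. PSMD6 stood at 13.32 and 13.31 in the 2 arrays labelled Y15, 13.71 and 13.66 with PF04554878, 11.39 and 11.31 with lapatinib, 11.31 and 11.40 with Y15 plus lapatinib, 13.62 and 13.71 with PF04554878 plus lapatinib, and 13.66 and 13.21 in the untreated arrays. Lapatinib without PF04554878 gave 4 arrays far below all 8 others, which overlapped among themselves. PSMD6 fell with lapatinib (-2.08 ± 0.12, adjusted p = 8e-10), to a level 4.23-fold lower, and with Y15 plus lapatinib (-2.08 ± 0.12, adjusted p = 8.26e-10). With PF04554878 plus lapatinib the change was 0.23 ± 0.12, adjusted p = 0.126, and did not pass. A second probe of PSMD6 had group means of 12.68 with Y15, 13.18 with PF04554878, 10.21 with lapatinib, 10.18 with Y15 plus lapatinib and 13.26 with PF04554878 plus lapatinib, against 12.61 untreated. On that probe the rises with PF04554878 and with PF04554878 plus lapatinib also passed.

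PSMD2, a scaffold subunit of the base, ran in the opposite direction. The log2 intensities of PSMD2 were 10.04 and 10.07 with Y15, 9.63 and 9.66 with PF04554878, 11.10 and 11.01 with lapatinib, 11.29 and 11.34 with Y15 plus lapatinib and 9.71 and 9.65 with PF04554878 plus lapatinib, against 10.17 and 10.12 in untreated arrays. No group overlapped with the untreated pair: the 4 arrays with lapatinib but not PF04554878 were higher and the others lower. PSMD2 rose with Y15 plus lapatinib (1.17 ± 0.08, adjusted p = 1.31e-08) and lapatinib (0.91 ± 0.08, adjusted p = 2.22e-07), fell with PF04554878 (-0.50 ± 0.08, adjusted p = 0.000165) and PF04554878 plus lapatinib (-0.46 ± 0.08, adjusted p = 0.000306), and did not pass with Y15 (-0.09 ± 0.08, adjusted p = 0.574). PSMD1, the other large scaffold subunit, differed from it. PSMD1 measured 9.24 and 9.34 with Y15, 10.09 and 10.01 with PF04554878, 9.46 and 9.65 with lapatinib, 9.71 and 9.64 and 10.02 and 10.01 with lapatinib plus Y15 and plus PF04554878, against 9.49 and 9.29 untreated. It was highest on the 4 arrays with PF04554878, where it rose by 0.66 ± 0.10 alone and 0.62 ± 0.10 with lapatinib. It also rose with Y15 plus lapatinib (0.29 ± 0.10, adjusted p = 0.0215), a call lost without replicate 1 of that group or without untreated replicate 2 (0.19, adjusted p = 0.162).

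PSMD12 measured 10.52 and 10.79 with Y15, 11.39 and 11.44 with PF04554878, 10.10 and 10.13 with lapatinib, 9.90 and 10.27 and 11.33 and 11.46 with lapatinib plus Y15 and plus PF04554878, against 10.95 and 10.81 untreated. This lid subunit was lowest on the 4 arrays with lapatinib but not PF04554878 and highest on the 4 with PF04554878, with the untreated pair between them. PSMD12 fell with Y15 plus lapatinib (-0.80 ± 0.12, adjusted p = 4.16e-05) and lapatinib (-0.77 ± 0.12, adjusted p = 5.7e-05) and rose with PF04554878 (0.53 ± 0.12, adjusted p = 0.00191) and PF04554878 plus lapatinib (0.51 ± 0.12, adjusted p = 0.00246). PSMD14 measured 10.37 and 10.44 with Y15, 11.39 and 11.34 with PF04554878, 10.14 and 10.27 with lapatinib, 10.22 and 10.35 and 11.21 and 11.55 with lapatinib plus Y15 and plus PF04554878, against 10.71 and 10.43 untreated. PSMD14, the deubiquitinase that removes ubiquitin chains as substrates enter, was higher on all 4 PF04554878 arrays than on the 8 others. It rose with PF04554878 plus lapatinib (0.81 ± 0.12, adjusted p = 5.04e-05) and PF04554878 (0.79 ± 0.12, adjusted p = 6.44e-05), and fell with lapatinib (-0.37 ± 0.12, adjusted p = 0.0169) in a call lost without lapatinib replicate 1 or untreated replicate 1 (-0.22, adjusted p = 0.163). PSMD4 measured 11.03 and 11.05 with Y15, 10.96 and 11.16 with PF04554878, 10.46 and 10.52 with lapatinib, 10.33 and 10.45 and 11.08 and 11.05 with lapatinib plus Y15 and plus PF04554878, against 11.11 and 10.89 untreated. PSMD4, a ubiquitin receptor, was lowest on the 4 arrays with lapatinib but not PF04554878 and fell with Y15 plus lapatinib (-0.61 ± 0.10, adjusted p = 8.96e-05) and lapatinib (-0.51 ± 0.10, adjusted p = 0.000419). PSMD3 and PSMD8, lid subunits, passed in none of the 12 comparisons, and PSMD11 rose against untreated arrays with Y15 plus lapatinib only (0.43 ± 0.13), a call lost without replicate 1 of that group (0.23, adjusted p = 0.205).

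The 4 activators are alternative caps of the core, and with PF04554878 3 rose and 1 fell, beside 45.2% of all genes passing. PSME1 and PSME2 together form the PA28 ring, which interferon gamma induces and which helps make peptides for antigen presentation. PSME1 stood at 10.92 and 11.04 in the 2 arrays labelled Y15, 12.03 and 11.99 with PF04554878, 10.96 and 10.88 with lapatinib, 10.66 and 10.58 with Y15 plus lapatinib, 12.13 and 12.19 with PF04554878 plus lapatinib, and 10.65 and 11.02 in the untreated arrays. Again PF04554878 gave the 4 highest arrays, and both Y15 and lapatinib arrays lay within the span of the untreated pair or overlapped with it. PSME1 rose with PF04554878 plus lapatinib (1.33 ± 0.11, adjusted p = 1.17e-07) and with PF04554878 (1.17 ± 0.11, adjusted p = 4.37e-07), or 2.25-fold. A second, dim probe, above background on 3 arrays, changed less, so that the mean of both probes rose by 0.68, adjusted p = 6.4e-06, with PF04554878 and by 0.78, adjusted p = 1.75e-06, with the combination. PSME2 measured 9.83 and 9.81 with Y15, 11.16 and 11.15 with PF04554878, 9.56 and 9.68 with lapatinib, 9.42 and 9.57 and 10.99 and 11.10 with lapatinib plus Y15 and plus PF04554878, against 10.10 and 10.05 untreated. All groups were separate from the untreated pair, the PF04554878 arrays above it and the others below. PSME2 rose with PF04554878 (1.08 ± 0.09, adjusted p = 1.47e-07) and PF04554878 plus lapatinib (0.97 ± 0.09, adjusted p = 4.34e-07), and fell with Y15 plus lapatinib (-0.58 ± 0.09, adjusted p = 5.17e-05) and lapatinib (-0.46 ± 0.09, adjusted p = 0.00044). The promoters of both genes are printed above with their TGACNNNGC matches.

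PSME3 forms a related ring that acts in the nucleus and degrades some proteins without ubiquitin. The log2 intensities of PSME3 were 8.79 and 8.74 with Y15, 8.30 and 8.08 with PF04554878, 9.69 and 9.75 with lapatinib, 9.93 and 9.96 with Y15 plus lapatinib and 8.13 and 8.22 with PF04554878 plus lapatinib, against 9.08 and 8.99 in untreated arrays. Its order was opposite to that of PSME2 at both ends: the PF04554878 arrays were the 4 lowest and the arrays with lapatinib but not PF04554878 the 4 highest. No group overlapped with the untreated pair, and both Y15 arrays lay just below it. PSME3 fell with PF04554878 plus lapatinib (-0.86 ± 0.09, adjusted p = 2.39e-06) and PF04554878 (-0.84 ± 0.09, adjusted p = 3.05e-06), and rose with Y15 plus lapatinib (0.92 ± 0.09, adjusted p = 6.96e-07) and lapatinib (0.69 ± 0.09, adjusted p = 1.32e-05). With Y15 the change was -0.26 ± 0.09, adjusted p = 0.116, and on a second probe it was -0.38 and passed. PSME4, or PA200, is a single-chain cap. PSME4 measured 9.34 and 9.44 with Y15, 9.99 and 10.14 with PF04554878, 9.31 and 9.38 with lapatinib, 9.57 and 9.22 and 10.09 and 10.02 with lapatinib plus Y15 and plus PF04554878, against 9.34 and 9.38 untreated. It rose with PF04554878 (0.71 ± 0.11, adjusted p = 7.04e-05) and PF04554878 plus lapatinib (0.70 ± 0.11, adjusted p = 8.02e-05), and its changes with lapatinib (-0.01), Y15 (0.03) and both (0.04) were close to 0 and did not pass.

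**Figure D4:**
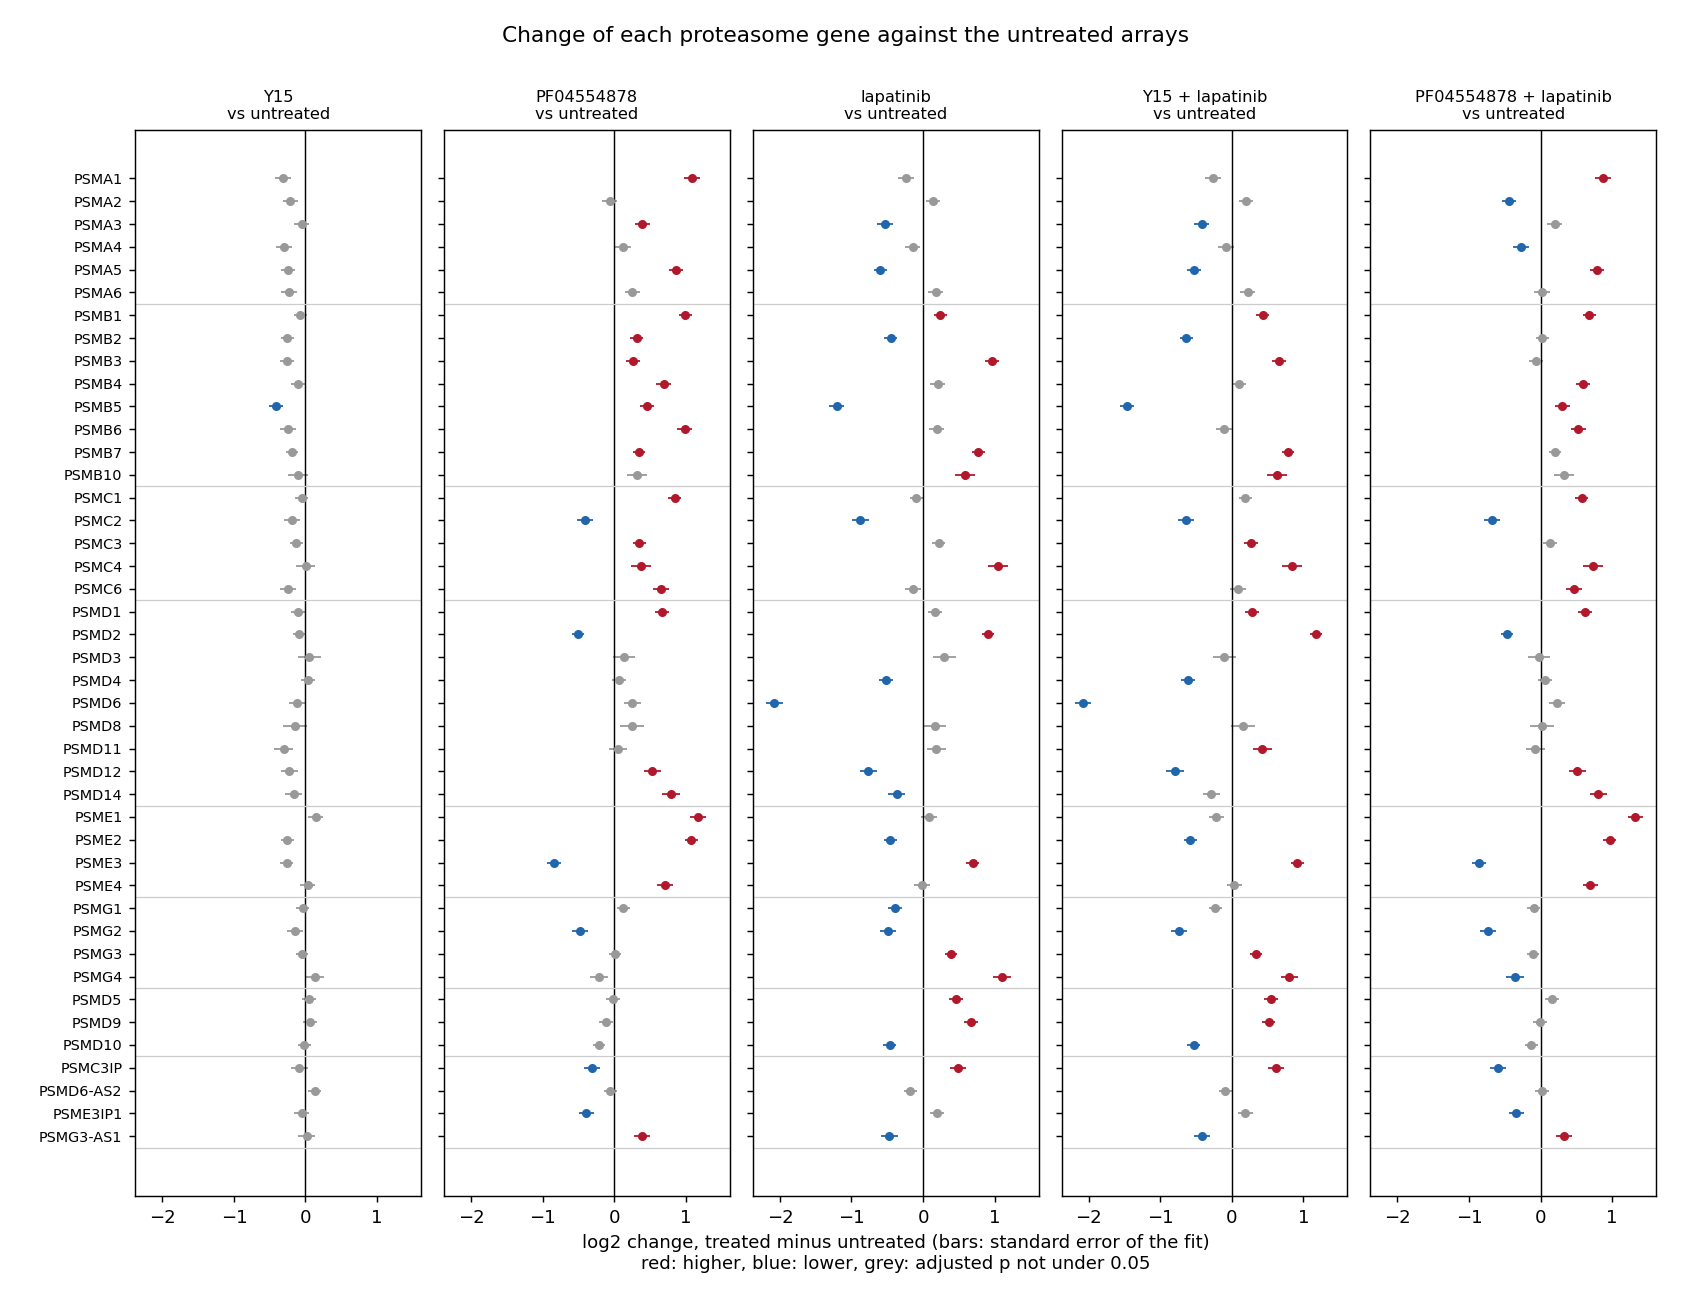
Log2 change of each of the 43 proteasome genes against the untreated arrays, 1 panel for each of 5 treatments, with bars of 1 standard error of the fit. Genes are ordered by role from the alpha ring at the top to symbols that name no subunit at the bottom. Red points are higher and blue points lower past the adjusted p threshold of 0.05, and grey points did not pass. The Y15 panel has 1 blue point, PSMB5, and the lapatinib panel has 14 blue and 12 red points.

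Assembly chaperones build the particles and are not part of the finished proteasome. Of 7, with lapatinib 4 rose and 3 fell, beside 55.9% of all genes passing, and with PF04554878 0 rose and 1 fell, beside 45.2%. PSMG1 to PSMG4 assemble the core particle, and PSMG1 works in a pair with PSMG2 and PSMG3 with PSMG4. PSMG4 stood at 8.77 and 8.50 in the 2 arrays labelled Y15, 8.30 and 8.27 with PF04554878, 9.71 and 9.51 with lapatinib, 9.45 and 9.16 with Y15 plus lapatinib, 8.25 and 8.04 with PF04554878 plus lapatinib, and 8.57 and 8.43 in the untreated arrays. The 4 arrays with lapatinib but not PF04554878 were the highest, and the PF04554878 arrays the lowest. PSMG4 rose with lapatinib (1.11 ± 0.12, adjusted p = 1.62e-06) and Y15 plus lapatinib (0.81 ± 0.12, adjusted p = 4.62e-05), and fell with PF04554878 plus lapatinib (-0.36 ± 0.12, adjusted p = 0.027), a call lost without untreated replicate 1 or replicate 2 of that group. Its partner PSMG3 rose with lapatinib (0.38 ± 0.08, adjusted p = 0.00101) and Y15 plus lapatinib (0.34 ± 0.08, adjusted p = 0.00304), and with background subtracted by 0.62, adjusted p = 0.0013, and 0.54, adjusted p = 0.003. PSMG2 measured 10.91 and 10.87 with Y15, 10.73 and 10.38 with PF04554878, 10.57 and 10.53 with lapatinib, 10.19 and 10.40 and 10.34 and 10.27 with lapatinib plus Y15 and plus PF04554878, against 11.01 and 11.06 untreated. Both untreated arrays were above all others, the Y15 arrays nearest. PSMG2 fell with Y15 plus lapatinib (-0.74 ± 0.11, adjusted p = 3.78e-05), PF04554878 plus lapatinib (-0.73 ± 0.11, adjusted p = 6.44e-05), lapatinib (-0.49 ± 0.11, adjusted p = 0.00156) and PF04554878 (-0.48 ± 0.11, adjusted p = 0.0023), and the last call did not hold without PF04554878 replicate 2 (-0.30, adjusted p = 0.0524). PSMG1 fell with lapatinib (-0.39 ± 0.09, adjusted p = 0.00227), while a second, dimmer probe of it changed by -0.04 and did not pass.

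PSMD5, PSMD9 and PSMD10 assemble the base of the regulatory particle and all 3 passed with lapatinib, where 55.9% of all genes passed. PSMD9 rose with lapatinib (0.67 ± 0.10, adjusted p = 2.46e-05) and Y15 plus lapatinib (0.51 ± 0.10, adjusted p = 0.000306), and lay below background on both arrays labelled PF04554878. PSMD5 rose with Y15 plus lapatinib (0.55 ± 0.10, adjusted p = 0.000159) and lapatinib (0.47 ± 0.10, adjusted p = 0.000672). PSMD10, also called gankyrin, fell with Y15 plus lapatinib (-0.53 ± 0.09, adjusted p = 0.000128) and lapatinib (-0.46 ± 0.09, adjusted p = 0.000409). None of the 3 passed with PF04554878 alone or with PF04554878 plus lapatinib. With background subtracted the changes with lapatinib were larger, 1.44, adjusted p = 0.000119, for PSMD9 and 0.74, adjusted p = 0.00193, for PSMD5.

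The 4 symbols that name no subunit behaved separately. PSMC3IP encodes a factor of meiotic recombination. PSMC3IP measured 7.50 and 7.65 with Y15, 7.39 and 7.31 with PF04554878, 8.11 and 8.19 with lapatinib, 8.18 and 8.38 and 7.05 and 7.08 with lapatinib plus Y15 and plus PF04554878, against 7.83 and 7.49 untreated. It was highest on the 4 arrays with lapatinib but not PF04554878. PSMC3IP rose with Y15 plus lapatinib (0.62 ± 0.11, adjusted p = 0.000258) and lapatinib (0.49 ± 0.11, adjusted p = 0.00173). The change with lapatinib was 0.32, adjusted p = 0.0276, without untreated replicate 2, and it rests on the brightest of 3 probes: the other 2, above background on all 12 arrays, changed by -0.0038 and 0.18 with lapatinib and did not pass, and the mean of the 3 probes changed by 0.22, adjusted p = 0.0341. All 3 probes passed as higher with Y15 plus lapatinib and lower in both PF04554878 groups. PSMC3IP fell with PF04554878 plus lapatinib (-0.59 ± 0.11, adjusted p = 0.000498), where subtracting the background gave -1.13, adjusted p = 0.000813. Its fall with PF04554878 (-0.31 ± 0.11, adjusted p = 0.0357) was -0.14, adjusted p = 0.355, without untreated replicate 1, -0.35, adjusted p = 0.0727, without PF04554878 replicate 1, -0.27, adjusted p = 0.154, without PF04554878 replicate 2, and -0.53, adjusted p = 0.042, with background subtracted. It was -0.48, adjusted p = 0.00259, without untreated replicate 2. PSME3IP1 encodes a protein that binds PSME3. PSME3IP1 measured 7.31 and 7.26 with Y15, 6.97 and 6.91 with PF04554878, 7.58 and 7.47 with lapatinib, 7.48 and 7.56 and 6.94 and 7.05 with lapatinib plus Y15 and plus PF04554878, against 7.18 and 7.49 untreated. It fell with PF04554878 (-0.39 ± 0.10, adjusted p = 0.00585) and PF04554878 plus lapatinib (-0.34 ± 0.10, adjusted p = 0.0141). The first change was -0.24, adjusted p = 0.0794, without untreated replicate 2 and -0.87, adjusted p = 0.00431, with background subtracted, and the second call was lost without replicate 1 of the combination or untreated replicate 2 (-0.18, adjusted p = 0.174). PSMG3-AS1, an antisense RNA, was not above background on either array labelled lapatinib or Y15 plus lapatinib, so that it was at least 1.2-fold lower there than in untreated arrays (adjusted p = 0.00274 with lapatinib). That bound sets the brighter group's mean against the background cutoff of 6.80. It rose with PF04554878 (0.38 ± 0.12, adjusted p = 0.0129), a call lost without untreated replicate 1 or PF04554878 replicate 1. Its rise with PF04554878 plus lapatinib (0.32 ± 0.12, adjusted p = 0.0312) was 0.14, adjusted p = 0.387, without replicate 1 of that group, 0.51, adjusted p = 0.00472, without its replicate 2, and 0.21, adjusted p = 0.206, without untreated replicate 1. Its lower level with Y15 plus lapatinib ended as a call without untreated replicate 2. PSMD6-AS2, another antisense RNA, passed in none of the 12 comparisons.

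In the arrays labelled Y15, 1 of 43 members passed, beside 5.44% of all genes. All 14 core particle subunits measured had a change below 0, but they share the same Y15 and untreated arrays and are not independent of each other. Their changes ran from -0.41 for PSMB5 to -0.05 for PSMA3, with a median of -0.24, beside 0.01 over all genes tested. At an unadjusted p under 0.05 from limma, 13 of 43 members were lower and 0 higher, where 21% of all genes tested reached that p in either direction. The untreated arrays differed from each other with an SD of 0.162 across all genes and 0.146 across the members, against 0.0991 and 0.104 for Y15. Without untreated replicate 2, 4 members passed, all lower, and without any 1 of the other 3 arrays 0 passed.

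The 2 FAK inhibitors were labelled with the same dose and time, and their arrays differed in many proteasome genes. Between PF04554878 and Y15, 26 of 43 members were higher and 5 lower with PF04554878, where 47.4% of all genes tested passed (24.5% higher, 22.9% lower). Among the core particle subunits 13 of 14 were higher and 0 lower, and PSMA2 (0.15 ± 0.10, adjusted p = 0.262) was the exception. The 3 largest were PSMA1 (1.40 ± 0.11, adjusted p = 1.11e-07), PSME2 (1.33 ± 0.09, adjusted p = 1.44e-08) and PSMB6 (1.23 ± 0.11, adjusted p = 2.34e-07). PSME3 (-0.58 ± 0.09, adjusted p = 0.000111), PSMD2 (-0.41 ± 0.08, adjusted p = 0.000911) and PSMG4 (-0.35 ± 0.12, adjusted p = 0.029) were lower with PF04554878, and the PSMG4 value was -0.22, adjusted p = 0.271, without Y15 replicate 1 and did not pass without either PF04554878 array. The median of the members was 0.42, beside -0.005 over all genes. When 1 of the 4 arrays was left out, 25 or 26 members passed.

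Adding lapatinib was compared with each FAK inhibitor alone. Against Y15, Y15 plus lapatinib had 19 higher and 13 lower members, beside 54.3% of all genes (26.8% higher, 27.5% lower). PSMD2 (1.26 ± 0.08, adjusted p = 5.58e-09), PSME3 (1.18 ± 0.09, adjusted p = 4.39e-08) and PSMB7 (0.97 ± 0.09, adjusted p = 1.49e-07) rose most, and PSMD6 (-1.96 ± 0.12, adjusted p = 1.76e-09), PSMB5 (-1.05 ± 0.10, adjusted p = 4.47e-07) and PSMD4 (-0.65 ± 0.10, adjusted p = 5.3e-05) fell most. Against PF04554878, PF04554878 plus lapatinib had 0 higher and 4 lower members, beside 8.88% of all genes (4.1% higher, 4.78% lower). The 4 were the core subunits PSMB6 (-0.46 ± 0.11, adjusted p = 0.0146), PSMA4 (-0.40 ± 0.11, adjusted p = 0.0311), PSMA2 (-0.38 ± 0.10, adjusted p = 0.03) and PSMB1 (-0.31 ± 0.09, adjusted p = 0.0452). Leaving out any 1 of the 4 arrays left at most 1 of these calls. PSMB6 was the call kept without replicate 1 of the combination, and it was -0.35, adjusted p = 0.169, without replicate 2. With background subtracted 0 of the 4 passed.

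Adding a FAK inhibitor was compared with lapatinib alone. Against lapatinib, PF04554878 plus lapatinib had 21 higher and 11 lower members, beside 57.2% of all genes (29% higher, 28.2% lower). PSMD6 (2.31 ± 0.12, adjusted p = 2.02e-10), PSMB5 (1.51 ± 0.10, adjusted p = 6.61e-09) and PSME2 (1.43 ± 0.09, adjusted p = 2.54e-09) were higher in the combination, and PSME3 (-1.55 ± 0.09, adjusted p = 1.64e-09), PSMG4 (-1.46 ± 0.12, adjusted p = 6.9e-08) and PSMD2 (-1.37 ± 0.08, adjusted p = 1.86e-09) lower. PSMD6 reached 13.62 and 13.71 with PF04554878 plus lapatinib, against 11.39 and 11.31 with lapatinib. Y15 plus lapatinib against lapatinib had 0 members past the threshold by limma, beside 11.3% of all genes (6.04% higher, 5.25% lower). At an unadjusted p under 0.05 there were 10 of 43 members (3 higher, 7 lower), where 25.3% of all genes tested reached that p. The smallest adjusted p was 0.0546, for PSMD2 (0.27 ± 0.08), whose 95% interval ran from 0.09 to 0.44. A fit of these 2 groups alone called 4.

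Whether lapatinib's change differed with and without a FAK inhibitor was tested as an interaction, the change with lapatinib in the presence of the inhibitor minus that in its absence. For PF04554878 23 of 43 members passed, 8 with a positive and 15 with a negative value, beside 45% of all genes (22.1% positive, 22.9% negative). The positive values were largest for PSMD6 (2.06 ± 0.17, adjusted p = 1.06e-07), PSMB5 (1.05 ± 0.15, adjusted p = 2.93e-05) and PSMD12 (0.75 ± 0.17, adjusted p = 0.00213). For PSMD6 lapatinib's change was -0.02 ± 0.12 beside PF04554878 and -2.08 ± 0.12 without it. The negative values were largest for PSMB3 (-1.29 ± 0.14, adjusted p = 2.42e-06), PSMG4 (-1.25 ± 0.17, adjusted p = 3.03e-05) and PSMB7 (-0.92 ± 0.12, adjusted p = 1.8e-05). For PSMB3 lapatinib's change was -0.33 ± 0.10 beside PF04554878 and 0.97 ± 0.10 without it. Negative values passed for 5 of 8 beta subunits, and positive values for PSMB5 alone among them. Of the 5, PSMB10 (-0.58) did not pass with background subtracted (-0.63, adjusted p = 0.0758). Its value was -0.32 without replicate 2 of PF04554878 plus lapatinib. The interactions of PSMA6, PSMC3 and PSME2 also did not pass with background subtracted. For Y15 0 members passed by limma, beside 3.87% of all genes (1.63% positive, 2.23% negative), with the smallest adjusted p at 0.053 for PSME3. An unadjusted p under 0.05 was reached by 10 of 43 members (8 positive, 2 negative), where 21.1% of all genes tested reached it. These interactions use the same lapatinib and untreated arrays.

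**Figure D5:**
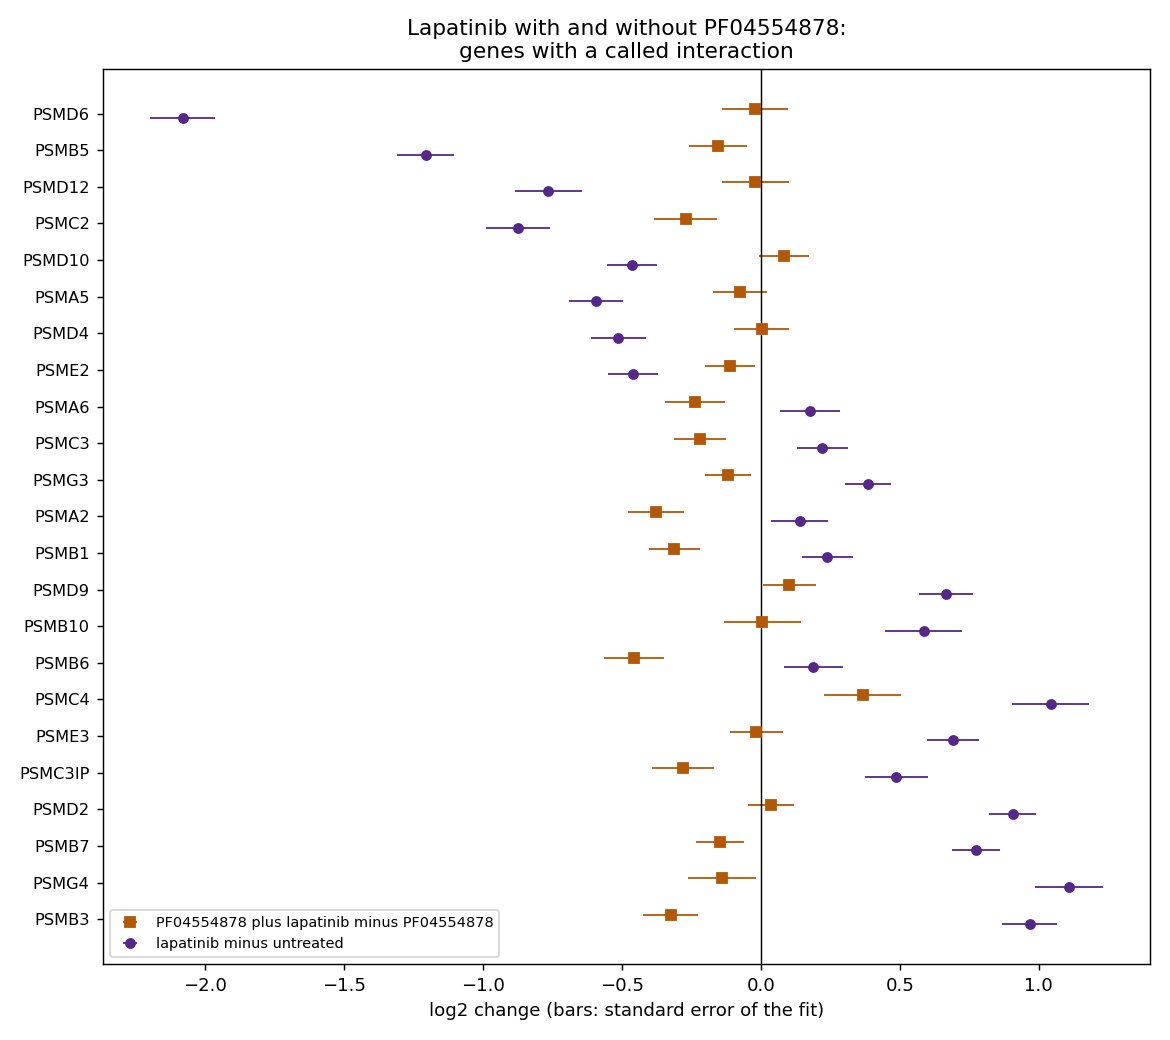
Log2 change with lapatinib for the 23 proteasome genes with an interaction past the threshold, in the presence of PF04554878 (squares, PF04554878 plus lapatinib minus PF04554878) and in its absence (circles, lapatinib minus untreated), with bars of 1 standard error of the fit. Squares lie between -0.46 for PSMB6 and 0.37 for PSMC4, while circles run from -2.08 for PSMD6 to 1.11 for PSMG4.

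Other genes of the proteasome pathway were read from a list of 30, of which 29 were on the array and 28 passed the filter. With PF04554878 9 rose and 7 fell, with lapatinib 12 and 11, with Y15 1 and 3, with Y15 plus lapatinib 9 and 8, and with PF04554878 plus lapatinib 9 and 6, beside the same percentages of all genes as given above. NFE2L1, the factor that raises proteasome genes when proteasome activity is lost, differed from the untreated pair in every group but Y15. NFE2L1 measured 7.79 and 7.76 with Y15, 8.44 and 8.59 with PF04554878, 8.83 and 8.81 with lapatinib, 8.53 and 8.37 and 8.43 and 8.52 with lapatinib plus Y15 and plus PF04554878, against 7.77 and 7.74 untreated. It rose with lapatinib (1.06 ± 0.09, adjusted p = 9.63e-08), PF04554878 (0.76 ± 0.09, adjusted p = 7e-06), PF04554878 plus lapatinib (0.72 ± 0.09, adjusted p = 1.14e-05) and Y15 plus lapatinib (0.69 ± 0.09, adjusted p = 1.02e-05). ADRM1, a ubiquitin receptor of the regulatory particle whose symbol lies outside the rule, also rose in those 4 groups, most with PF04554878 (1.75 ± 0.13, adjusted p = 3.67e-08). ADRM1 measured 10.27 and 10.35 with Y15, 11.98 and 11.96 with PF04554878, 11.44 and 11.20 with lapatinib, 11.07 and 11.10 and 11.54 and 11.62 with lapatinib plus Y15 and plus PF04554878, against 10.46 and 9.97 untreated. On its brightest probe SEM1, a small lid subunit, fell in the same 4 groups, most with Y15 plus lapatinib (-1.33 ± 0.11, adjusted p = 6.87e-08). A dimmer SEM1 probe, above background on all 12 arrays, differed. With lapatinib it read 8.24 and 8.15, overlapping with 8.50 and 8.16 untreated. That probe was lowest with PF04554878 plus lapatinib (7.27 and 7.26), against 7.67 and 7.67 with PF04554878 and 7.83 and 7.94 with Y15 plus lapatinib. UBQLN2, which shuttles ubiquitinated proteins to the proteasome, rose most with PF04554878 plus lapatinib (1.46 ± 0.11, adjusted p = 3.27e-08), and UBE3C, a ligase bound to the proteasome, fell most with Y15 plus lapatinib (-1.21 ± 0.09, adjusted p = 1.38e-08). POMP, which matures the core particle, fell with lapatinib (-0.32 ± 0.12, adjusted p = 0.0349) and passed in no other comparison against untreated. It read 11.30 and 11.44 with lapatinib against 11.89 and 11.49 untreated, so that untreated replicate 2 lay close to the lapatinib arrays.

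PSMB8, the immunoproteasome counterpart of PSMB5, was left out of the rule and is set beside PSMB5 for its role. On its brightest probe PSMB8 measured 6.60 and 6.57 with Y15, 7.05 and 7.17 with PF04554878, 8.44 and 8.40 with lapatinib, 8.40 and 8.28 and 6.97 and 6.90 with lapatinib plus Y15 and plus PF04554878, against 6.54 and 6.56 untreated. It lay below background on both untreated and both Y15 arrays. Against the background cutoff it was at least 3.07-fold higher with lapatinib (adjusted p = 9.29e-11), 2.91-fold with Y15 plus lapatinib, 1.24-fold with PF04554878 and 1.1-fold with PF04554878 plus lapatinib. PSMB8 was thus highest in the groups where PSMB5 was lowest. On its brightest probe PSMB9, the counterpart of PSMB6, stayed between 6.51 and 7.02 on all arrays and passed in none of the 5 comparisons. A dimmer PSMB9 probe, above background on 3 arrays, differed. With lapatinib it read 6.887 and 6.925, above 6.513 and 6.475 untreated. With Y15 plus lapatinib that probe read 6.998 and 6.749, and in the other treated groups it lay between 6.388 and 6.697. Whether the dimmer probe passed was not tested. With Y15, MIDN, which carries proteins to the proteasome without ubiquitin, rose (0.40 ± 0.10, adjusted p = 0.0322), and ECPAS (-0.47 ± 0.12, adjusted p = 0.035), RAD23B (-0.37 ± 0.10, adjusted p = 0.0474) and ZFAND2A (-0.33 ± 0.09, adjusted p = 0.042) fell. ECPAS and RAD23B rose with lapatinib (0.38 ± 0.12 and 0.68 ± 0.10). Unlike the calls of members, those of pathway genes, here and in the paragraph before, were not refitted with single arrays left out.

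A further probe above background was found for 14 of the 43 members, 18 probes in all. In none of the 5 comparisons against untreated did such a probe pass in the direction opposite to a passing main probe. Of 12 further probes whose gene passed with lapatinib, 9 passed in the same direction, as did 8 of 10 with PF04554878. Second probes of PSMA6 (0.54) and PSMC1 (0.30) rose with lapatinib where the main probes, at 0.18 and -0.10, did not pass. With 2 arrays a group, the number of arrays limits the precision of every value here.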

How the data were processed

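Per the labels' protocols, total RNA was extracted with TRIZOL and made into biotin-labelled cRNA; these protocols name frozen tissue as the source, while the labels give a cell line. The values used are the log2 intensities the authors deposited for 47318 probes on 12 arrays. The submitters' processing notes list GenomeStudio. How it handled background and scaling, and in which version, is not given in the sources used here. Deposited values ran from 6.20 to 13.90. Once sorted, the columns differed by 0.0146 or less, which is how quantile normalization would leave them. Another deposited table, of raw signals, has 24 columns of per-sample values whose names match no sample's label, and they were not used. Background may remain in the values, so folds are compressed, more so in dim genes.

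Genes were named from the platform annotation, in which 30111 probes carry 1 symbol, 8 several and 17199 none. Background was taken as the mode of all values, 6.55, and the cutoff of 6.80 lay 3 SD (0.0827, from the values below the mode) above it. Probes past the cutoff on at least 2 of 12 arrays (19922) were used, the brightest of them for each gene, which left 11564 genes. Each array had between 9648 and 9877 of these above the cutoff. The 6 group means were estimated from all 12 arrays in limma 3.58.1 (lmFit, contrasts.fit and eBayes, under R 4.3.3), with 6 residual and 9.10 prior degrees of freedom, and the test was checked on simulated data. Each of the 12 comparisons was adjusted by Benjamini-Hochberg over all 11564 genes, with a threshold of 0.05.

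The members, the pathway list and the motifs were chosen with earlier results of these data known. Values on every array are given for the up to 6 members each way with the largest change past the threshold against untreated, the up to 3 each way in other comparisons, the catalytic subunits and the activators, and 3 of the pathway genes. PSMC1 and PSMD1 were added to these after their values had been seen. Samples with the same number in different groups did not deviate together. Over 10 pairs of groups, r of their deviations ran from -0.33 to 0.13, with 1 pair over 0.1, so the numbers were not taken to pair samples. The alternatives tried were: no filter, a stricter filter (all 12 arrays), the mean of a gene's probes, subtracted background (offset 16), arrays centred on the median, an intensity trend in the prior, a fit of the compared groups, replicate numbers as a block, and leaving out single samples.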

Additional observations from a re-analysis of the deposited data

Results flagged for a closer look

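Lapatinib's change differed with and without PF04554878 for 23 of the 43 proteasome genes by limma's interaction term, beside 45% of all genes tested. PSMD6 (2.06), PSMB5 (1.05) and PSMD12 (0.75) had the largest positive log2 interaction values among the members, each lower with lapatinib than in untreated arrays and with a change nearer 0 in the presence of PF04554878. PSMB3 (-1.29), PSMG4 (-1.25) and PSMB7 (-0.92) had the largest negative values, each higher with lapatinib than in untreated arrays. Leaving out any 1 of the 8 arrays gave between 20 and 26 members past the threshold. These 8 arrays also belong to different sets by their correlation across genes, since PF04554878 and PF04554878 plus lapatinib lie in one set and lapatinib and untreated arrays in the other 2, and the part of these sets in the interaction was not tested.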

How the results depend on the processing

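The counts of members past the threshold stayed within 1.5 times their value in 8 of the 12 comparisons under every alternative run: they ran from 21 to 28 for PF04554878 against untreated, 24 to 28 for lapatinib, 25 to 28 for Y15 plus lapatinib, 21 to 26 for PF04554878 plus lapatinib, 28 to 35 for PF04554878 plus lapatinib against lapatinib, 26 to 34 for Y15 plus lapatinib against Y15, 25 to 33 for PF04554878 against Y15, and 20 to 26 for its interaction with lapatinib. In the other 4 the counts were small. For Y15 against untreated, 2 members passed with the mean of kept probes and 0 with background subtracted, the compared groups alone or the replicate block, and 0 to 4 with 1 sample left out. For Y15 plus lapatinib against lapatinib 2 passed without the filter, 1 with the mean of probes and 4 with the compared groups alone. For PF04554878 plus lapatinib against PF04554878 0 passed with background subtracted, 2 with the replicate block and 0 to 1 with 1 sample left out. For the interaction of Y15 and lapatinib 1 passed with the mean of probes and 0 to 2 with 1 sample left out. The cause of these changes was not tested.

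Single changes were followed for every call of a member in the 12 comparisons and for the catalytic subunits and activators against untreated, 244 in all. Over their 3008 alternatives 2787 kept direction and side of the threshold, 204 lost and 10 gained the call, and 7 turned their sign, all of them small changes that had not passed. With 1 sample left out, PSME1 ran from -0.0386 to 0.325 with Y15 and from -0.0949 to 0.269 with lapatinib, negative without untreated replicate 1. PSME4 ran from -0.0195 to 0.0789 with Y15, from -0.0463 to 0.017 with lapatinib (0.0081 without untreated replicate 2) and from -0.14 to 0.211 with Y15 plus lapatinib, and PSMB6 from -0.242 to 0.0247 with Y15 plus lapatinib. Centring moved the median of all genes by less than 0.1. The replicates of Y15 plus lapatinib are numbered 1 and 3, so its comparisons were left out of the planned replicate block; a block over all 12 arrays, chosen after seeing the data, called 25 members against untreated, 26 against Y15, and 0 against lapatinib and for the interaction of Y15. The number of arrays and, for PSMD9, PSMG3-AS1 and PSMD6-AS2, intensities near background limit the precision.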
